A study of Mus musculus with 16 samples.

Results

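The Kruppel-like factors (KLFs) are transcription factors that bind GC-rich and CACCC DNA sequences through conserved zinc fingers at their C-terminal end, and they are grouped with the closely related SP factors. Some members, such as Klf2, Klf4, Klf6 and Klf10, are induced within a short time of a growth, flow or injury stimulus. Others, such as Klf9 and Klf15, respond to glucocorticoid or thyroid hormones, and in neurons members of the family promote or restrain the growth of axons and dendrites. In this section 10 KLF genes were taken from the 40481 genes listed by gene symbol (Klf2, Klf3, Klf4, Klf6, Klf7, Klf9, Klf10, Klf13, Klf15 and Klf16), with Klf2, Klf4, Klf6 and Klf10 treated as early response members and the other 6 set beside them. All 10 were among the 14949 genes that passed the filter on low counts.

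RNA was sequenced from the brains of 16 male mice purchased at 18 months of age, of the strain C57BL in the labels, which the study names more fully as C57BL/6J. The adropin group (n = 8) was injected intraperitoneally each day with 90 nmol/kg of synthetic adropin 34-76, the putative secreted domain of the peptide, in saline containing BSA. The saline group (n = 8) received that diluent alone. Behavioral testing began after 2 weeks of injections, which continued during the tests, and all mice were fasted for 6 h before tissue was taken. These 16 libraries come from a larger experiment with 15 mice in each treatment, and the labels name the tissue as brain without a region, so the effect of 1 dose was measured in a mixture of cell types. Fewer cells of a type and less RNA per cell cannot be told apart in such samples. Single mice carry the numbers of their sample labels.

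Libraries held between 35026503 and 70314050 counts. Neuronal markers were abundant in every mouse (7 of 7 tested, summed level 7008 to 8514 CPM, counts per 1000000 after TMM normalization), as were astrocyte (2316 to 4191) and oligodendrocyte markers (2745 to 8024). Of 6 cerebellar markers, Cbln3, Gabra6 and Pcp2 did not pass the filter, although 1 of them reached 125 CPM in a mouse, and of the 3 tested Car8 was lower in adropin-treated mice (log2 fold change -1.40, edgeR unadjusted p = 0.0338). The summed level of the 6 ranged from 98.3 to 177 CPM in adropin and from 101 to 556 in saline, with mouse 8_3 the highest. Markers of the choroid plexus were lower in adropin-treated mice for 5 of the 5 tested (unadjusted p below 0.05 in edgeR, beside 2.13% of all genes), while Folr1 and Kcnj13 did not pass the filter. The summed level of all 7 ranged from 11.9 to 74.5 CPM in adropin and from 13.5 to 2470 in saline, where mouse 8_3 was the highest.

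The sequences upstream of Klf2, Klf4 and Klf6 are shown because these 3 genes gave the smallest exact permutation p-values of the family and did not move in 1 direction. They were taken from RefSeq promoter windows (GRCm38.p6), matched for 8 of the 10 genes (not Klf10 and Klf16), and end before the first annotated base of the transcript. All are written 5′ to 3′ on the strand of the gene. The Klf2 sequence lies at chr8:72318812-72319032 on the plus strand, and capitals mark a MEF2 site (CTAAATTTAG) and GC boxes (GGGCGG on either strand). The Klf4 sequence lies at chr4:55532476-55532725 on the minus strand, and capitals mark GC boxes and an E-box (CACGTG). The Klf6 sequence lies at chr13:5861239-5861481 on the plus strand, and capitals mark CCAAT boxes (CCAAT on either strand), a GC box and an E-box.
Klf2 upstream: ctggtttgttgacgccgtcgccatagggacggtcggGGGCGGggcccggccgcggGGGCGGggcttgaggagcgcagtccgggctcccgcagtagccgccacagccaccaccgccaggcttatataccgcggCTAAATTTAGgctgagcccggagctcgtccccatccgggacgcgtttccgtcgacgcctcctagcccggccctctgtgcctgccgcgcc
Klf4 upstream: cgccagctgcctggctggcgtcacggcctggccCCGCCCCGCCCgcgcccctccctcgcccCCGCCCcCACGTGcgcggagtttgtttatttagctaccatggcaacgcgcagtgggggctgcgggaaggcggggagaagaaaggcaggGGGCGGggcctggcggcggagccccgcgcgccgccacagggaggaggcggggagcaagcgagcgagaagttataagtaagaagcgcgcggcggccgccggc
Klf6 upstream: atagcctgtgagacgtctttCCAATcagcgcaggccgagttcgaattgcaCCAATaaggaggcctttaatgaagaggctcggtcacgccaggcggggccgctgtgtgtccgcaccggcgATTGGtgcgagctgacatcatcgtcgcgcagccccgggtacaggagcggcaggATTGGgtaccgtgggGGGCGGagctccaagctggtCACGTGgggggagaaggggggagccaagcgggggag
A MEF2 site, the sequence bound by the MEF2 factors that act downstream of the kinase ERK5, was found in 1 of the 8 KLF windows, that of Klf2, and in 3.19% of 32817 promoter windows of the same length. A GC box was found in 7 of the 8 (35.6% of all windows), an E-box in Klf4, Klf6 and Klf15 (7.15%), and a CCAAT box in Klf6, Klf9, Klf13 and Klf15 (37.4%). The CArG box bound by serum response factor (1.63% of all windows), the complete palindromic cAMP response element (1.79%) and the glucocorticoid response element (0.00914%) were in none of these 8 windows. The shorter form of the cAMP response element, TGACG, was in 6 of the 8, Klf6 and Klf7 being without it, and in 20.8% of all windows. The TATA box TATAAA was in none of the 8 and in 13.6% of all windows. Both strands were searched. G and C made up from 58.3% (Klf7) to 76.7% (Klf3) of the bases in the KLF windows, and the windows they were compared with were not matched for this.

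The first question was whether treatment with adropin changed the level of KLF transcripts. Klf2, Klf4 and Klf10 were lower and Klf6 and Klf7 were higher in adropin-treated mice at an unadjusted p below 0.05, while the other 5 genes were not separated from no change. Thus 5 of the 10 had such a p in edgeR's quasi-likelihood test, beside 3.99% of all genes tested. Of these 3 were lower (2.13% of all genes) and 2 were higher (1.86%), and 6 of the 10 estimates were below 0 (50.8% of all genes). The 10 genes were chosen with earlier results of these data known, so these shares are a description. None of the 10 reached a fold change of 1.5, which 0.421% of all genes did at the same p (0.308% lower and 0.114% higher). No member passed the Benjamini-Hochberg adjustment over all genes, and neither did any other gene (0%), the adjusted p of the 5 genes being 0.874 in each case (edgeR). No member did so in limma-voom or in DESeq2, which called 5 other genes, the lowest adjusted p in any alternative being 0.150 (DESeq2). By a two-sided exact permutation test over all divisions of the mice into equal groups, those 5 genes also had p below 0.05, beside 3.67% of all genes (1.87% lower and 1.81% higher). With the first number of the sample labels as a block in the edgeR fit, only Klf2 and Klf4 kept an unadjusted p below 0.05. With the second number only Klf2, Klf4 and Klf6 did.

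**Figure D1:**
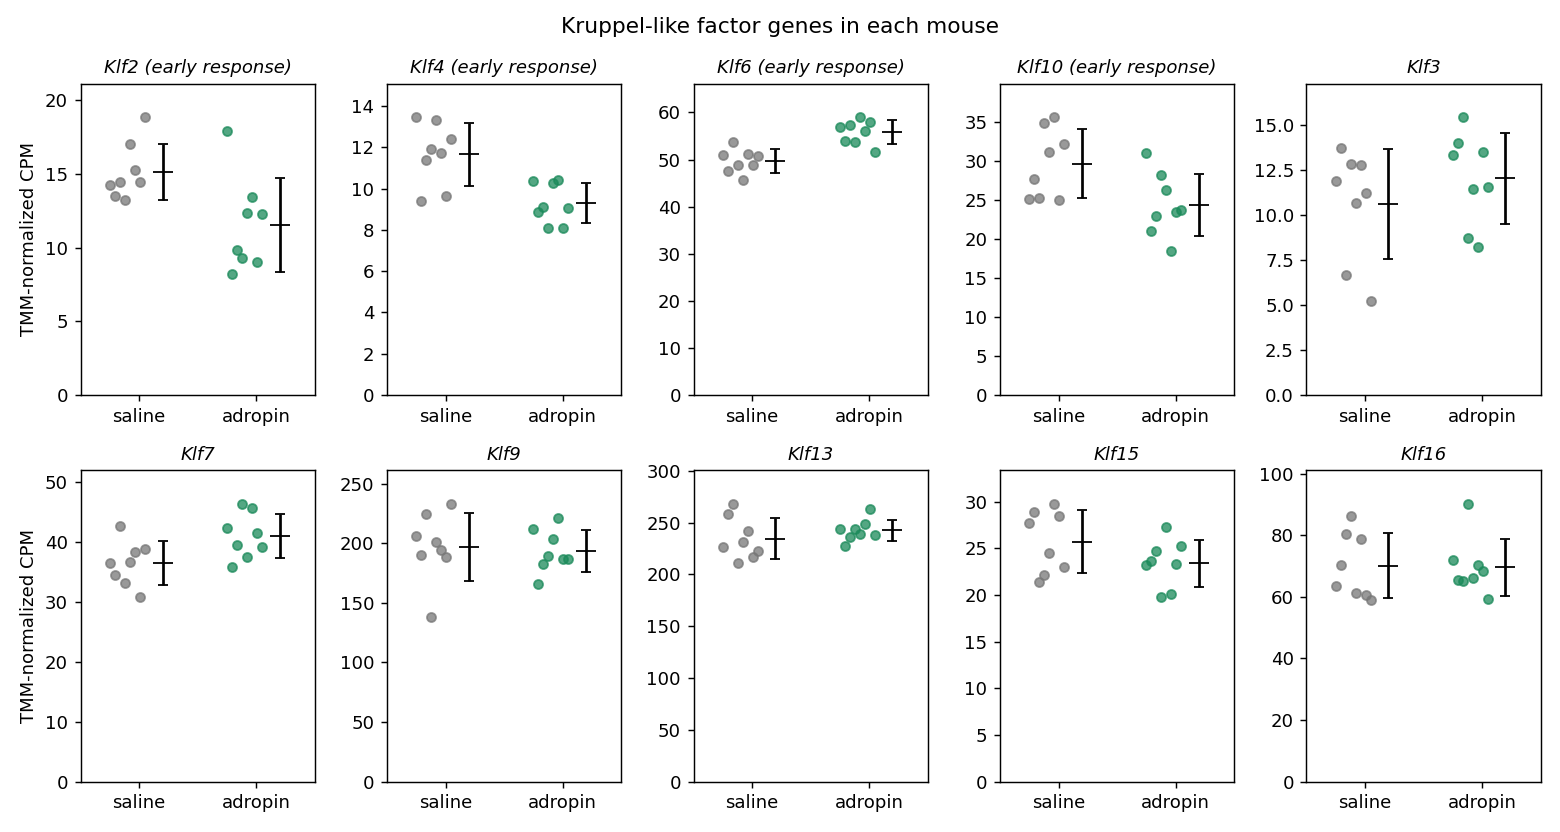
TMM-normalized CPM (vertical axes, from 0) of each of the 10 KLF genes in 8 saline-treated (grey) and 8 adropin-treated mice (green). Each point is 1 mouse and the bars give mean ± SD. For Klf4 all 8 adropin-treated mice lie under the saline median of 11.8, and for Klf6 all 8 lie over the saline median of 49.8.

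Klf2 and Klf4 encode related factors known for their role in the endothelium, where blood flow induces them. Klf2 lies on chromosome 8 of GRCm38 from 72319033 to 72321656. It had a lowest, median and highest level of 8.19, 11.1 and 17.9 TMM-normalized CPM in adropin-treated mice and of 13.2, 14.5 and 18.9 in saline-treated mice. Thus 6 of 8 adropin-treated mice were below every saline-treated mouse, and mouse 1_3 alone, at 17.9, was above the saline median. Group means were 11.5 ± 3.18 for adropin against 15.1 ± 1.91 for saline (SD, 8 mice per group). The log2 fold change was -0.39 ± 0.14 (SE, edgeR unadjusted p = 0.0105, exact permutation p = 0.0132). Mouse 1_3 also had the largest library, and without it the log2 fold change of Klf2 was -0.51 (edgeR unadjusted p = 0.000248).

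Klf4, which besides its part in blood vessels is known as a pluripotency factor and as a restraint on axon growth, lies on chromosome 4 from 55527143 to 55532466. Its lowest, median and highest levels were 8.08, 9.08 and 10.4 TMM-normalized CPM in adropin-treated mice and 9.41, 11.8 and 13.5 in saline-treated mice. The groups overlapped only between the 2 lowest saline-treated mice (5_3 and 8_1) and the upper adropin-treated mice, 6 of 8 saline-treated mice being above every adropin-treated mouse. Group means were 9.29 ± 0.966 for adropin against 11.7 ± 1.51 for saline (SD, 8 mice per group), a log2 fold change of -0.33 ± 0.09 (SE, edgeR unadjusted p = 0.00146, exact permutation p = 0.00357).

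Klf10, also called TGFB-inducible early gene, encodes a repressor that recruits the Sin3 corepressor. It lies on chromosome 15 from 38291463 to 38300706. Its lowest, median and highest levels were 18.5, 23.6 and 30.9 TMM-normalized CPM in adropin-treated mice and 25.0, 29.4 and 35.6 in saline-treated mice. Here 5 of 8 adropin-treated mice were below every saline-treated mouse, and 4 of 8 saline-treated mice were above every adropin-treated mouse. The log2 fold change was -0.28 ± 0.10 (SE, edgeR unadjusted p = 0.0159, exact permutation p = 0.0258). Fits blocked by either number of the labels did not keep this p below 0.05. They gave -0.29 for the first number (edgeR unadjusted p = 0.0558) and -0.23 for the second (edgeR unadjusted p = 0.0876).

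Klf6, a factor induced by injury and able to promote axon growth, differed in the other direction from the rest of the early response members. It lies on chromosome 13 from 5861482 to 5870394. Its lowest, median and highest levels were 51.5, 56.5 and 59.0 TMM-normalized CPM in adropin-treated mice and 45.6, 49.8 and 53.7 in saline-treated mice. Of the 8 adropin-treated mice 7 exceeded every saline-treated mouse, though mouse 3_3 did so by a narrow margin (53.8 against 53.7 in saline-treated mouse 5_4), and the other, mouse 7_4, had 51.5. Group means were 55.8 ± 2.51 for adropin against 49.7 ± 2.52 for saline (SD, 8 mice per group). The difference was small, a log2 fold change of 0.17 ± 0.04 (SE, edgeR unadjusted p = 0.00147, exact permutation p = 0.000311). The spread between mice was also small, with a coefficient of variation of 4.5% in adropin and 5.08% in saline, where that of Klf2 was 27.6% and 12.6%. Blocking the edgeR fit by the first number of the labels lowered the log2 fold change of Klf6 to 0.12 (edgeR unadjusted p = 0.157). Blocking by the second number gave 0.14 (edgeR unadjusted p = 0.0167).

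Among the other members, Klf7 was the 1 gene with an unadjusted p below 0.05. This factor, which supports the outgrowth of axons in developing neurons, lies on chromosome 1 from 64029447 to 64122282. Its lowest, median and highest levels were 35.9, 40.6 and 46.4 TMM-normalized CPM in adropin-treated mice and 30.9, 36.7 and 42.8 in saline-treated mice. The ranges overlapped widely, although 7 of 8 adropin-treated mice were above the saline median. The log2 fold change was 0.17 ± 0.07 (SE, edgeR unadjusted p = 0.0250, exact permutation p = 0.0284). It was 0.14 without saline-treated mouse 8_1 (edgeR unadjusted p = 0.0584) and 0.15 without saline-treated mouse 6_1 (edgeR unadjusted p = 0.0513). Klf7 fell to 0.06 when the fit was blocked by the first number of the labels (edgeR unadjusted p = 0.581). Blocked by the second number, it was 0.14 (edgeR unadjusted p = 0.0680).

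The hormone-responsive members had no unadjusted p below 0.05 in the fit without covariates. Klf9, which thyroid hormone and glucocorticoids induce and which acts in the maturation of neurons, lies on chromosome 19 from 23141226 to 23168134. It averaged 194 ± 17.7 TMM-normalized CPM with adropin against 197 ± 28.7 with saline (SD, 8 mice per group), a log2 fold change of -0.03 (95% interval -0.21 to 0.16, edgeR). Klf15, a glucocorticoid target and regulator of metabolism in fasting, lies on chromosome 6 from 90462576 to 90475238. It averaged 23.4 ± 2.52 with adropin against 25.7 ± 3.34 with saline in the same unit (SD), with 7 of 8 treated mice under the median of the controls. Its log2 fold change of -0.14 had a 95% interval from -0.31 to 0.04 (edgeR unadjusted p = 0.125, exact permutation p = 0.152). It was -0.21 with 1 surrogate variable (edgeR unadjusted p = 0.00208) and -0.22 with the choroid plexus markers as a covariate (edgeR unadjusted p = 0.0166).

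The remaining members act mainly as repressors. Klf13, on chromosome 7 from 63886351 to 63938915, averaged 243 ± 10.3 TMM-normalized CPM with adropin against 235 ± 20.1 with saline (SD, 8 mice per group). Its log2 fold change was 0.05 (95% interval -0.06 to 0.16, edgeR). Klf16, on chromosome 10 from 80567124 to 80577321, averaged 69.6 ± 9.20 with adropin against 70.0 ± 10.5 with saline in the same unit, a log2 fold change of -0.01 (95% interval -0.20 to 0.19, edgeR). Klf3, which recruits the corepressor CtBP, lies on chromosome 5 from 64803388 to 64832901. It was the most variable of these 6 genes, averaging 12.0 ± 2.55 with adropin against 10.6 ± 3.06 with saline in the same unit (SD) and a log2 fold change of 0.18 (95% interval -0.20 to 0.56, edgeR). Saline-treated mice 8_3 and 5_4 had the lowest Klf3 levels, 5.24 and 6.69 TMM-normalized CPM, and the log2 fold change was 0.0782 without the former and 0.107 without the latter. Klf3 overlaps Gm20033 on the other strand, with 1393 counts over all mice, and whether counting used strand is not given in the sources used here, so its count is uncertain.

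**Figure D2:**
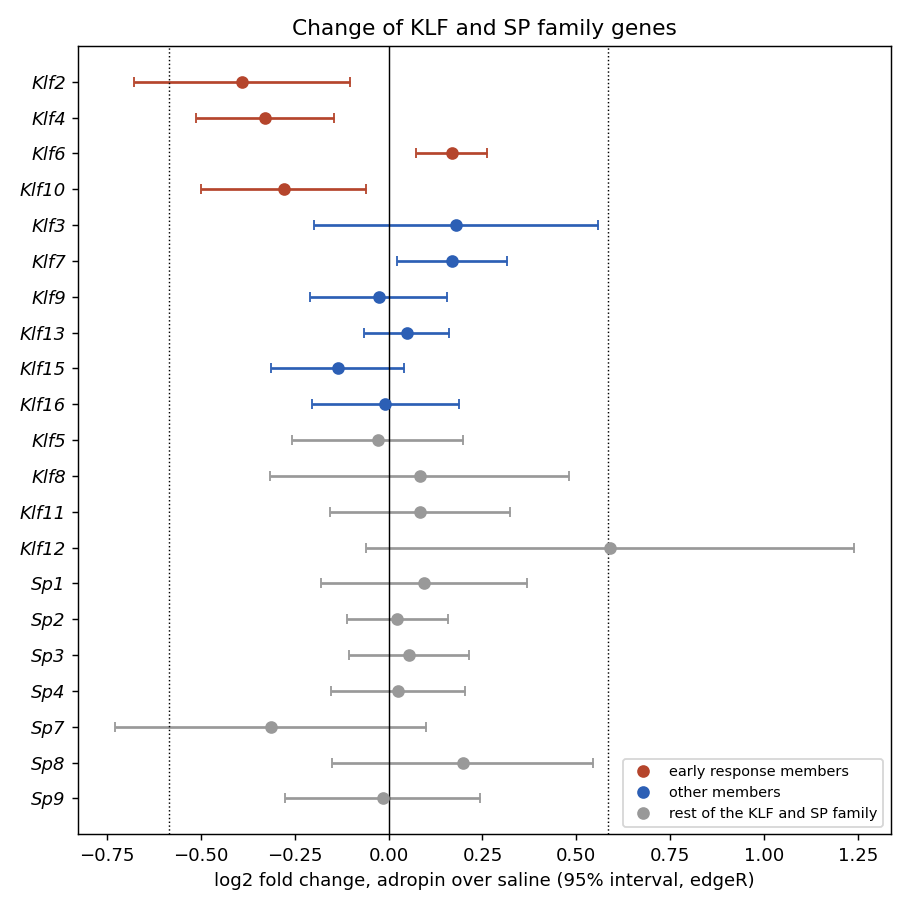
Log2 fold change of adropin over saline with its 95% interval in edgeR for the 4 early response members (red), the 6 other members (blue) and the 11 tested genes of the rest of the KLF and SP family (grey). Dotted lines mark a fold change of 1.5 in either direction. Klf2, Klf4 and Klf10 lie left of 0 and Klf6 and Klf7 right of 0, with intervals that do not reach 0.

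The second comparison set the early response members beside the others. The median log2 fold change was -0.30 for the 4 early response members, 0.02 for the 6 others and -0.002 for all genes tested. At an unadjusted p below 0.05, where 2.13% of all genes were lower and 1.86% higher, 3 of the early response members were lower and 1 was higher. Of the others 0 were lower and 1 was higher (edgeR). The list was chosen with results of these data known, so this difference was not tested. Per mouse, the mean log2 level of the early response members minus that of the others had a lowest, median and highest value of -1.74, -1.58 and -1.34 in adropin-treated mice and of -1.57, -1.36 and -0.99 in saline-treated mice. Here 4 of 8 adropin-treated mice were below every saline-treated mouse and 3 of 8 saline-treated mice were above every adropin-treated mouse.

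Within the early response members, Klf6 and the other 3 genes moved apart. The log2 level of Klf6 minus the mean log2 level of Klf2, Klf4 and Klf10 does not depend on how libraries are scaled. It had a lowest, median and highest value of 1.67, 2.04 and 2.27 in adropin-treated mice and of 1.25, 1.53 and 1.74 in saline-treated mice. Thus 7 of 8 adropin-treated mice were above every saline-treated mouse, the other being mouse 1_3, which had the highest Klf2 and Klf10 of its group. This contrast was chosen after the values were seen and is given as a description.

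**Figure D3:**
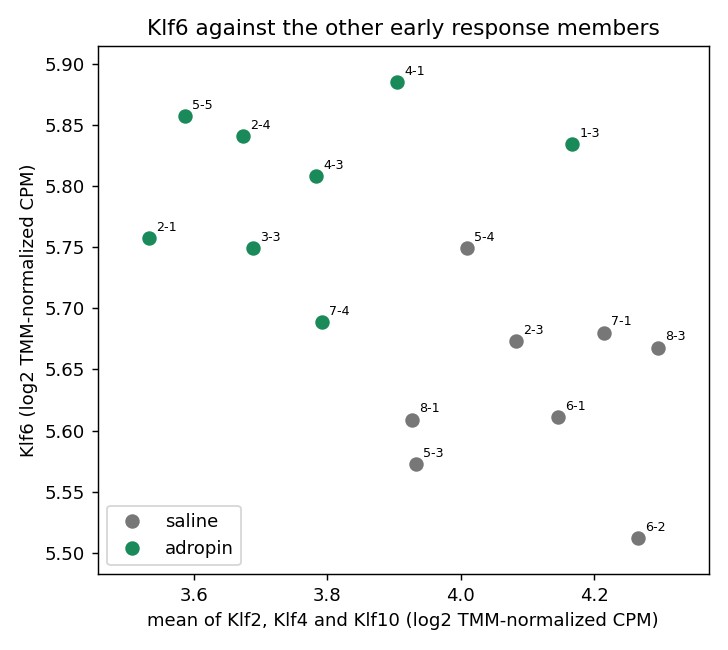
Log2 TMM-normalized CPM of Klf6 (vertical axis) against the mean over Klf2, Klf4 and Klf10 (horizontal axis) in 16 mice, each labelled by its numbers, with saline in grey and adropin in green. Adropin-treated mice lie towards the upper left and saline-treated mice towards the lower right, with adropin-treated mouse 1_3 apart from its group on the horizontal axis.

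These differences were set beside markers of cell types. Of 12 endothelial markers, 0 were lower and 1 was higher in adropin-treated mice at an unadjusted p below 0.05, and their median log2 fold change was 0.03 (edgeR). Vwf, which encodes von Willebrand factor, was the gene that was higher, with a log2 fold change of 0.56. The summed level of the endothelial markers ranged from 320 to 532 TMM-normalized CPM in adropin-treated mice and from 347 to 432 in saline-treated mice, with mouse 1_3 the highest. With the mean level of these markers as a covariate, the log2 fold change was -0.43 for Klf2 and -0.34 for Klf4 (edgeR unadjusted p = 0.00116 and unadjusted p = 0.000595). Of 9 microglial markers 1, Cx3cr1, was higher, of 8 mural cell markers 1, Rgs5, was lower, and of 5 cortical markers 1, Rorb, was higher (log2 fold change 0.35, edgeR unadjusted p = 0.0333). None of the 6 oligodendrocyte or 7 neuronal markers had an unadjusted p below 0.05 in edgeR, though all 6 of the former had estimates below 0 (median -0.19) and all 7 of the latter above 0 (median 0.05). The part of the oligodendrocyte, neuronal and cortical markers in the KLF values was not tested. With the choroid plexus markers as a covariate, the log2 fold change was -0.33 for Klf2, -0.32 for Klf4, -0.29 for Klf10, 0.19 for Klf6 and 0.24 for Klf7, each at an unadjusted p below 0.05 (edgeR). Without saline-treated mouse 8_3 it was -0.34 for Klf2, -0.32 for Klf4, -0.26 for Klf10, 0.17 for Klf6 and 0.18 for Klf7. These covariates were added after the data were seen.

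The rest of the family and the genes around it were then counted. Of the 16 other KLF and SP genes, 11 passed the filter, and Klf1, Klf14, Klf17, Sp5 and Sp6 did not, their highest level in any mouse being 1.14 TMM-normalized CPM. None of the 11 had an unadjusted p below 0.05 in edgeR, and their median log2 fold change was 0.05. The estimate furthest from 0 was that of Klf12, a repressor, at a mean of 10.3 TMM-normalized CPM with adropin against 6.85 with saline and a log2 fold change of 0.59 (95% interval -0.06 to 1.24, edgeR unadjusted p = 0.0728). The most abundant of the 11, Sp3, had a log2 fold change of 0.05 (95% interval -0.10 to 0.21). Of 16 cofactors that KLFs recruit or that act on them, such as Sin3a, Ctbp1 and Ep300, 1 was higher and 0 were lower at an unadjusted p below 0.05. This was Crebbp, which encodes the acetyltransferase CBP, with a log2 fold change of 0.14.

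Klf2 and Klf4 are transcribed in the endothelium through ERK5 and MEF2 factors. Of 11 tested genes of this route 2 were higher in adropin-treated mice at an unadjusted p below 0.05 (1.86% of all genes) and 0 were lower (2.13%, edgeR), although Klf2 and Klf4 themselves were lower. Piezo1, which encodes a channel opened by mechanical force, averaged 8.10 ± 1.36 TMM-normalized CPM with adropin against 6.02 ± 1.31 with saline (SD, 8 mice per group), a log2 fold change of 0.43 (edgeR unadjusted p = 0.00706). Mef2c, which neurons also express at a high level, averaged 645 ± 63.2 with adropin against 558 ± 65.4 with saline in the same unit, a log2 fold change of 0.21 (edgeR unadjusted p = 0.0135). Of 11 tested genes known as endothelial targets of Klf2 and Klf4, such as Nos3 and Thbd, 0 had an unadjusted p below 0.05. Their log2 fold changes ranged from -0.15 to 0.17, with a median of 0.05.

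Immediate early genes are transcribed rapidly after neuronal activity, as the early response KLFs can be. Of 25 tested genes of this list, which holds no KLF, 18 were lower and 0 were higher at an unadjusted p below 0.05 (edgeR), with a median log2 fold change of -0.53. Of all genes tested, 2.13% were lower and 1.86% were higher at that p. This list was also chosen with earlier results of these data known, so its values are a description. The smallest p-values were those of Egr4, an activity-induced zinc finger factor (log2 fold change -0.55, edgeR unadjusted p = 2.59e-05), and Gadd45b, a stress-induced gene (-0.53, edgeR unadjusted p = 8.36e-05). Egr1, the most abundant of the list, had -0.40 (edgeR unadjusted p = 0.0592). The values of Klf2, Klf4 and Klf10 were thus smaller in size than that median, and that of Klf6 was above 0, as were Egr3 and Ccn2 in this list (0.09 for each). Of 19 genes for the glucocorticoid and thyroid hormone receptors and their targets, 3 were lower and 0 were higher, namely Cdkn1a (-0.27), Errfi1 (-0.21) and Per1 (-0.26). The median log2 fold change of these 19 genes was -0.19. Klf9 and Klf15, with -0.03 and -0.14, were nearer to 0.

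Levels were compared between members per length, as TMM-normalized CPM per kilobase (kb) of annotated exon over all 16 mice. Klf9 was the highest with 40.6 ± 4.80, followed by Klf13 (31.7 ± 2.12), Klf16 (26.1 ± 3.58) and Klf6 (12.0 ± 0.909). Klf15 (8.81 ± 1.11), Klf2 (7.22 ± 1.70), Klf10 (6.45 ± 1.16), Klf7 (4.77 ± 0.527), Klf4 (3.43 ± 0.568) and Klf3 (1.01 ± 0.250) followed (SD, n = 16 mice). The early response members thus took places from the fourth to the ninth, behind Klf9, Klf13 and Klf16. Of the 9 pairs of neighbours in this order, 8 differed within mice (two-sided exact sign-flip permutation test, adjusted p of at most 0.00522 over the 9 pairs). Klf2 and Klf10 did not, with Klf2 above Klf10 in 10 of 16 mice (exact permutation p = 0.0788). When the length of the longest transcript was used, Klf10 came before Klf2, and Klf3 rose to 2.17 ± 0.539, since the exons annotated for Klf3 sum to 11243 bases and its longest transcript to 5221.

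**Figure D4:**
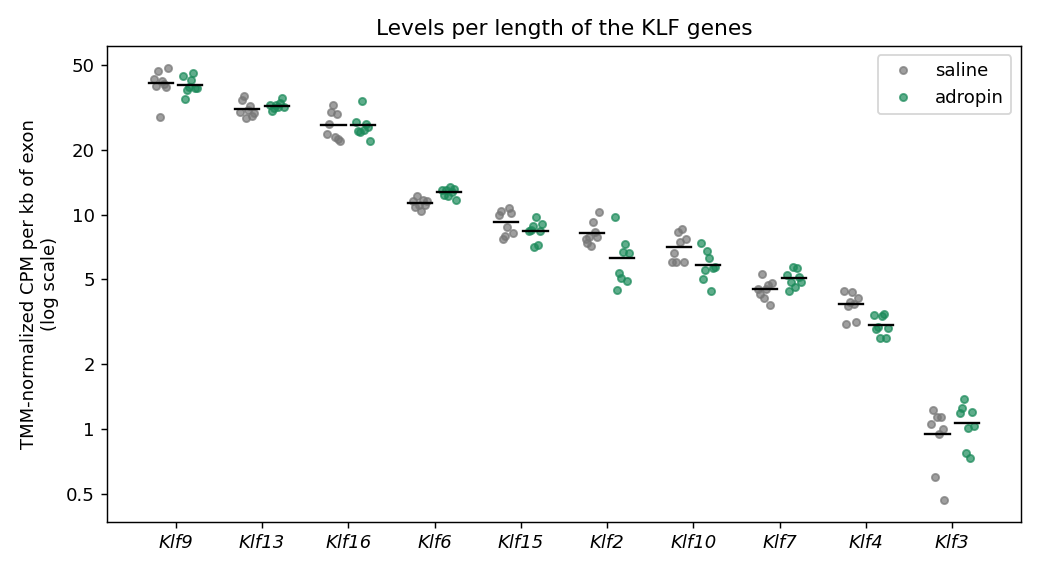
TMM-normalized CPM per kb of exon (log axis) of the 10 KLF genes in order of their mean over 16 mice, with saline in grey and adropin in green. Each point is 1 mouse and black lines are group means. Klf9, Klf13 and Klf16 form the upper set, and Klf3 lies below all others.

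To describe how members varied together apart from treatment, group means were subtracted and the 45 pairs of members were correlated over the 16 mice. None of the 45 had an adjusted p below 0.05 by Pearson's r. The smallest p belonged to Klf2 and Klf9 (Pearson r = 0.600, permutation p = 0.00213 and 0.0958 after adjustment, with Spearman's rho = 0.756, permutation p = 0.000970 and 0.0436 after adjustment). The r was 0.823 within adropin-treated and 0.627 within saline-treated mice, and 0.575 without the 2 mice farthest from the median of Klf2. Klf2 and Klf4 had the same r (0.600, permutation p = 0.00766 and 0.129 after adjustment, with Spearman's rho = 0.615, permutation p = 0.0103 and 0.116 after adjustment). Within adropin-treated mice it was 0.806, within saline-treated mice 0.455, and without the 2 farthest mice 0.632. The other 5 pairs among the early response members had r from -0.04 to 0.31.

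Members were also correlated with the mean z-scored level of 4 gene lists and with 2 measures of the library, 60 relations in all, none of which had an adjusted p below 0.05. With the immediate early gene list, r was 0.17 for Klf2, 0.006 for Klf4, -0.25 for Klf6 and 0.27 for Klf10 (permutation p from 0.324 to 0.984, adjusted p from 0.671 to 0.997). Spearman's rho ran from -0.129 to 0.232 (permutation p from 0.398 to 0.687). Within the adropin group the r of Klf6 was 0.250 and within the saline group -0.684, a difference that was not tested, and for Klf2 the corresponding values were 0.120 and 0.306. Without mice 5_4 and 5_5, the farthest from the median of the list, r was 0.454 for Klf2, 0.205 for Klf4, -0.165 for Klf6 and 0.232 for Klf10. The smallest p was that of Klf15 with astrocyte markers (Pearson r = 0.681, permutation p = 0.00419 and 0.124 after adjustment, with Spearman's rho = 0.588, permutation p = 0.0217 and 0.275 after adjustment). It was 0.836 within adropin-treated mice, 0.556 within saline-treated mice and 0.50 without the 2 mice farthest from the median of the marker level. Klf16 with endothelial markers had the next smallest p (Pearson r = -0.639, permutation p = 0.00689 and 0.124 after adjustment, with Spearman's rho = -0.668, permutation p = 0.00646 and 0.275 after adjustment). This r was -0.598 within adropin-treated mice, -0.789 within saline-treated mice and -0.707 without mice 1_3 and 3_3. Klf2 with endothelial markers gave r = 0.615 (permutation p = 0.0326 and 0.261 after adjustment, with Spearman's rho = 0.485, permutation p = 0.0857 and 0.566 after adjustment). Klf16 with the hormone targets had r = -0.685 (permutation p = 0.00695 and 0.124 after adjustment, with Spearman's rho = -0.468, permutation p = 0.0808 and 0.566 after adjustment), which was -0.250 without mice 6_1 and 3_3. Klf15 with the hormone targets had r = 0.638 (permutation p = 0.00968 and 0.124 after adjustment, with Spearman's rho = 0.471, permutation p = 0.0794 and 0.566 after adjustment), which was 0.449 without those mice. Klf3 with astrocyte markers had r = 0.640 (permutation p = 0.0103 and 0.124 after adjustment, with Spearman's rho = 0.588, permutation p = 0.0205 and 0.275 after adjustment), which was 0.438 without mice 5_4 and 4_3. For Klf2 without the 2 farthest mice, 1_3 and 3_3, the r with endothelial markers was 0.346, so it rests in part on those mice. That r was 0.633 within adropin-treated and 0.567 within saline-treated mice. The other relations with a permutation p below 0.05 before adjustment were those of Klf4 with endothelial markers (r = 0.487, rho = 0.406) and of Klf3 (r = 0.496, rho = 0.574), Klf4 (r = -0.515, rho = -0.509) and Klf9 (r = -0.490, rho = -0.582) with Gm42418, at adjusted permutation p from 0.261 to 0.287 for r.

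**Figure D5:**
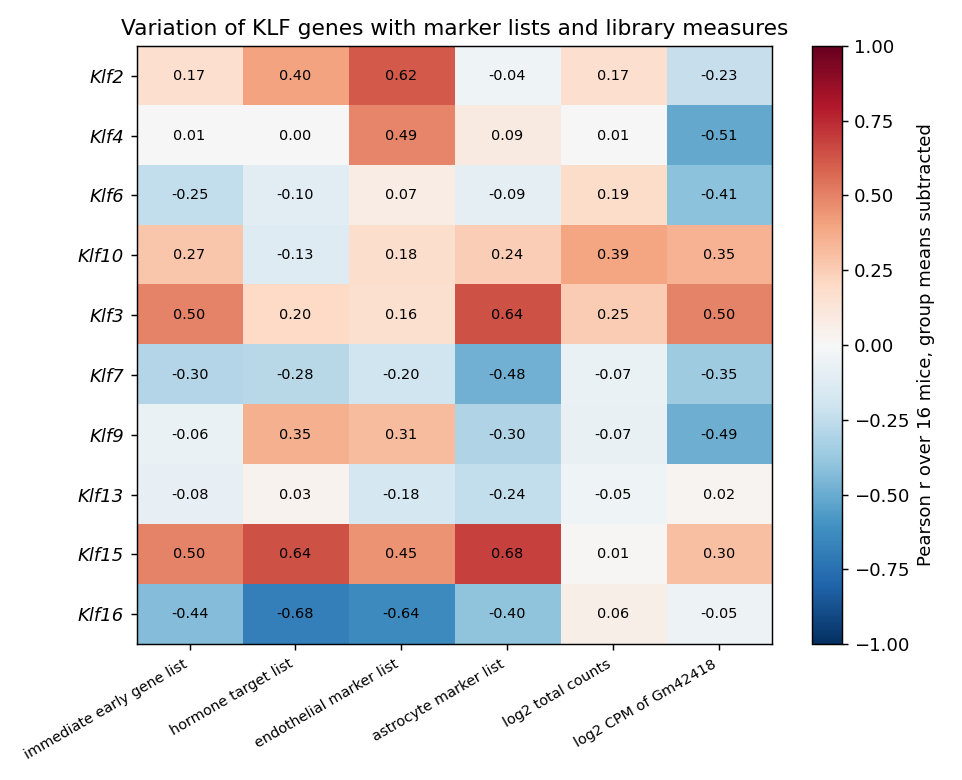
Pearson r over 16 mice, with group means subtracted, between each of the 10 KLF genes (rows) and the mean level of 4 gene lists, total counts and Gm42418, a gene known to take up ribosomal RNA reads (columns). Red is positive and blue negative. The largest values are 0.68 for Klf15 with astrocyte markers and -0.68 for Klf16 with hormone targets, and none of the 60 passed the adjustment.

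The genes whose levels most resembled those of the early response members were picked as the 3 with the largest Pearson r over the 16 mice, group means subtracted, among all genes tested, and their r is a description without a test. For Klf2 they were Ing2 (r = 0.922), Ier3 (0.824) and Mmrn2 (0.794), the last of which encodes an endothelial matrix protein. For Klf4 they were Sphk1 (0.828), Atoh8 (0.821) and Tmem88 (0.799). Of these, Atoh8 was itself lower in adropin-treated mice, with 2.11 against 2.76 TMM-normalized CPM and a log2 fold change of -0.39 (edgeR unadjusted p = 0.0324). For Klf10 they were Acvr1c (0.860), Foxn2 (0.783) and Tnfaip3 (0.761), and for Klf6 Dbr1 (0.820), Cd209a (0.808) and Zfp524 (0.772). Acvr1c, which encodes a receptor for ligands of the TGFB superfamily, was higher in adropin-treated mice (log2 fold change 0.31, edgeR unadjusted p = 0.0254) while Klf10 was lower. For the 6 other members the largest r ranged from 0.746 (Klf13 with Gm5124) to 0.971 (Klf3 with Senp5).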

How the data were processed

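Brain RNA was poly-A selected and sequenced as paired reads in 16 mice. The authors used STAR and the assembly of Ensembl release 76 (GRCm38) for alignment and deposited featureCounts counts per gene, from reads that aligned once and to 1 gene, without normalization. A deposited table of CPM for the same genes was not used. Repeated entries of the same gene (276 of 40757) were dropped, leaving 40481 genes.

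TMM factors came from edgeR 4.0.16 run in R 4.3.3. The filter followed the study's methods: a gene had to exceed 1 CPM in 7 or more mice, and 355 ribosomal RNA genes were removed. The 14949 genes that remained were fitted together with edgeR's quasi-likelihood test, without covariates, and Benjamini-Hochberg adjusted. Standard errors were taken from the F statistic. Exact permutation tests used log2 TMM-normalized CPM (prior count 2). Correlations used 100000 permutations of mice within groups, and 15 hormone targets were scored without the receptors. Coordinates and exon lengths are from GENCODE M21 on GRCm38. Each mouse was 1 replicate, since the study gives separate animals.

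The members and lists were chosen with earlier results of these data known. Named genes are the 10 members, up to 6 genes of each list with the smallest unadjusted p below 0.05, its most abundant gene, and the 3 genes most like each member. Other genes, such as Klf12, Egr3 and Ccn2, were named after their values were seen.

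The alternatives were limma-voom (limma 3.58.1), DESeq2 1.42.0, DESeq2 size factors, library size only, every gene with at least 1 count, at least 10 counts in every mouse, either label number as a block, a Gm42418 covariate, 1 surrogate variable (sva 3.50.0) and leaving out each mouse. The fit was tested on simulated data for this comparison (14949 genes), where it found 179 of 200 altered genes, with 7 false calls at an adjusted p below 0.05. The members had from 231 to 16449 counts per mouse.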

Additional observations from a re-analysis of the deposited data

Results flagged for a closer look

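In 20 groups of 8 mice, for 10 genes in each treatment, 2 held a mouse whose distance from its neighbour took up an unusually large share of the spread of that group (Dixon's test), and about 1 in 20 such groups would do so by chance. Klf9 was 138 TMM-normalized CPM in saline-treated mouse 6_1 (nearest 189). Klf16 was 90.2 TMM-normalized CPM in adropin-treated mouse 3_3 (nearest 72.0). Neither gene differed between the groups at an unadjusted p below 0.05, and no explanation was tested.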

How the results depend on the processing

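Klf2 and Klf4 kept their direction and an unadjusted p below 0.05 in all 13 alternative fits and when each of the 16 mice was left out in turn. The 13 include the fits with choroid plexus or endothelial markers as a covariate and that without mice 1_3 and 8_3, all added after the data were seen. Across the fits without single mice, the log2 fold change ranged from -0.51 to -0.32 for Klf2, from -0.37 to -0.29 for Klf4, from -0.33 to -0.22 for Klf10, from 0.15 to 0.18 for Klf6 and from 0.14 to 0.21 for Klf7, and the number of members lower at this p was 3 in each. The number higher ranged from 1 to 2, that of all genes lower from 192 to 524 and that of all genes higher from 162 to 921. What the label numbers stand for is not given. Mice of different groups with the same first number had correlations of their deviations from -0.27 to 0.22, and those with the same second number from -0.56 to 0.30. Few pairs share a first number, so these values cannot decide whether it marks mice that belong together. First numbers 1, 3 and 4 occurred only in adropin-treated mice and 6 and 8 only in saline-treated mice, so the first number is partly confounded with treatment. With the first label number as a replicate block, 2 members were lower (Klf2 and Klf4) and 0 were higher, 195 of all genes were lower and 132 higher, and the median of the 6 other members was -0.0720. Klf10 was then -0.29 (edgeR unadjusted p = 0.0558), Klf6 0.12 (unadjusted p = 0.157) and Klf7 0.06 (unadjusted p = 0.581). With the second label number as a replicate block 1 member was higher (Klf6), and 146 of all genes. Klf10 was -0.23 (edgeR unadjusted p = 0.0876) and Klf7 0.14 (unadjusted p = 0.0680). Fewer degrees of freedom remain in both fits. The estimates of Klf6 and Klf7 were themselves smaller with the first number as a block than without it. Only first numbers 2, 5 and 7 occur in both treatments, so only mice with these numbers inform the group difference in that fit. The cause of these changes was not tested.

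Without a filter, 1061 of all genes were lower and 841 higher among 30210. The number of all genes higher was 158 with library size only, where 73.6% of the calls were lower against 53.4% with TMM, 146 with the Gm42418 covariate and 126 with the choroid plexus covariate. Without mice 1_3 and 8_3 together, a choice made after the data were seen, it was 106, with 204 lower. The direction reversed for Klf3, Klf9 and Klf16. Klf3, the highest estimate of the members at 0.18, was -0.0140 with 1 surrogate variable and -0.0918 with the choroid plexus covariate, and ranged from 0.0782 to 0.251 without single mice. Klf9 was 0.0318 with the Gm42418 covariate, 0.0301 with 1 surrogate variable and 0.0634 with the choroid plexus covariate, and ranged from -0.0875 to 0.0127 without single mice. Klf16 was 0.0129 with 1 surrogate variable and 0.0140 with the endothelial covariate, and ranged from -0.0643 to 0.0398 without single mice. Klf15 had an unadjusted p below 0.05 with 1 surrogate variable (-0.21) and the choroid plexus covariate (-0.22).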
